A study of Vitis vinifera with 74 samples.

Results

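In grapevine buds, 70 of the 42413 gene identifiers counted were lower in ABA-sprayed than in water-sprayed cuttings at 12, 24 and 48 h. Averaged over 24 and 48 h, the same identifiers lay near the control level in ABA-sprayed leaves. For 27 of the 70 a lowering in leaves was not detectable at their low leaf level. The 70 genes were chosen by these measured bud and leaf values. The log2 ratio of ABA to control, computed as log2((ABA + 1)/(control + 1)) from group means in CPM (counts divided by the column total and multiplied by 1e+06), had to be -1.5 or lower in buds at each of the 3 times. In leaves the mean log2 ratio of 24 and 48 h had to lie within 0.5 of 0. In control buds the log2 change from pre-treatment to 72 h had to stay under 2. Values that entered this choice are given below as a description and carry no test.

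Abscisic acid (ABA) is a plant hormone that accumulates under water shortage and during bud dormancy. It binds soluble receptors of the PYR/PYL family, which then inhibit PP2C phosphatases and so release SnRK2 kinases that phosphorylate transcription factors and ion channels. In leaves it is best known for closing stomata. In buds of woody plants it is associated with dormancy and with delayed bud break.

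Both experiments used the wine grape cultivar Cabernet Franc (Vitis vinifera). In the leaf (acclimation) experiment, S-ABA at 1.9 mM (500 mg per litre) with the surfactant Tween-20 was sprayed on potted greenhouse vines, water with Tween-20 was the control, and leaves were taken before spraying (8 libraries) and at 2, 4, 24 and 48 h (4 libraries for each treatment and time). In the bud (deacclimation) experiment, single-node cuttings of chilled dormant canes from field vines were brought to the woolly bud stage under warm conditions and sprayed with water or with S-ABA at 5 mM (1322 mg per litre), and buds were taken before spraying and at 6, 12, 24, 48 and 72 h. Leaf and bud doses, formulations, plants and sampling times thus differed, and a difference between the tissues cannot be told apart from these. The code in the description of the 72 h buds reads 75 instead of 72, and the time of the titles is used here.

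A leaf library held 1321798 to 2414909 counts and a bud column 1526985 to 2616086. The 3 columns of a bud group differed by about sampling noise, with chi-square values divided by their degrees of freedom of 1.02 to 1.17 in 30 pairs of columns, against 3.85 to 25.4 in 76 pairs of leaf libraries. The 4 columns of the 48 h control lay between, at 1.34 to 2.00 in 6 pairs. Sequencing was done in triplicate for a library, per the labels, so each bud group was counted as 1 sample, and no bud difference below has a replicate check or a p-value. The leaf libraries were treated as replicates, but no label ties a library to a vine, so leaf p-values reflect only how these libraries scatter. In bulk tissue, fewer cells of a type and less RNA per cell cannot be told apart. The deposited identifiers came without gene names or descriptions and none matched the gene table at hand, so the roles of the 70 genes, their pathways and the tissue labels could not be checked, and few identifiers are printed.

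Of the 14482 genes with enough reads in control buds to meet the bud criterion (at least 1.83 CPM at 12, 24 and 48 h), 99 were lower by the required amount at all 3 times. Of these 99, 70 met the leaf and control criteria, and 10 had a leaf ratio near 0 but a control level that was at least 4-fold up at 72 h. In leaves 14 were lower and 5 were higher with ABA, by a mean log2 ratio at least 0.5 from 0. At the edges of the choice, the weakest bud ratio inside was -1.505 and the nearest outside -1.499. The leaf means nearest to the limit were 0.49 inside and 0.50 outside, in absolute value. The control changes nearest to the limit were 1.96 inside and 2.10 outside. The size of the set depended on the scaling of the libraries: with TMM scaling, which changes the median log2 ratio of the 14482 genes from -0.28 to -0.06 at 12 h and from -0.16 to -0.04 at 24 h, 39 genes met the same criteria, of which 37 were among the 70.

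The 70 genes covered a wide range of abundance in buds. Their mean control level over 12, 24 and 48 h ran from 2.59 to 3070 CPM, with a median of 55.2 CPM, and their pre-treatment level from 1.17 to 3755 CPM, with a median of 34.8 CPM. Together they held 0.982% of the counts in pre-treatment buds and 0.881 to 1.23% in the 5 control groups. Their share was 0.214 to 0.518% in ABA buds at 6 to 48 h and 0.736% in ABA buds at 72 h. The composition of the ABA libraries of 6 to 48 h also differed in another respect. The most abundant gene of the ABA 12 h library held 7.71% of its counts, against 1.39% for that of the 12 h control. At 6, 24 and 48 h the most abundant gene held 3.02, 4.25 and 3.28% with ABA, against 1.19, 0.756 and 0.863% in controls. At 72 h the shares were 0.991% with ABA and 1.16% in the control. The part of this difference in the ratios was not tested.

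At the times used for the choice, the median log2 ratio of the 70 genes was -2.12 at 12 h, -1.81 at 24 h and -2.17 at 48 h, beside -0.28, -0.16 and -0.13 over the 14482 genes. The lowest ratio of a gene came at 48 h in 36 genes, at 12 h in 21 and at 24 h in 10. It came at 6 h in 2 genes and at 72 h in 1 gene. The levels behind these ratios also entered the choice and support nothing further. In the ABA buds 69 of the 70 genes were below their pre-treatment level at all of 12, 24 and 48 h. At least 2-fold below it throughout were 48 of the 70, against 5.99% of the 14482 genes. In the control buds 50 of the 70 stayed within 2-fold of pre-treatment at all 3 times, and 7 were at least 2-fold above it throughout. For the counts of 69, 50 and 7 the matching shares of the 14482 genes were not computed, so these only describe the 70. The median log2 change from pre-treatment was 0.27, 0.59 and 0.56 at 12, 24 and 48 h in controls and -1.71, -1.32 and -1.73 in ABA buds.

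**Figure D1:**
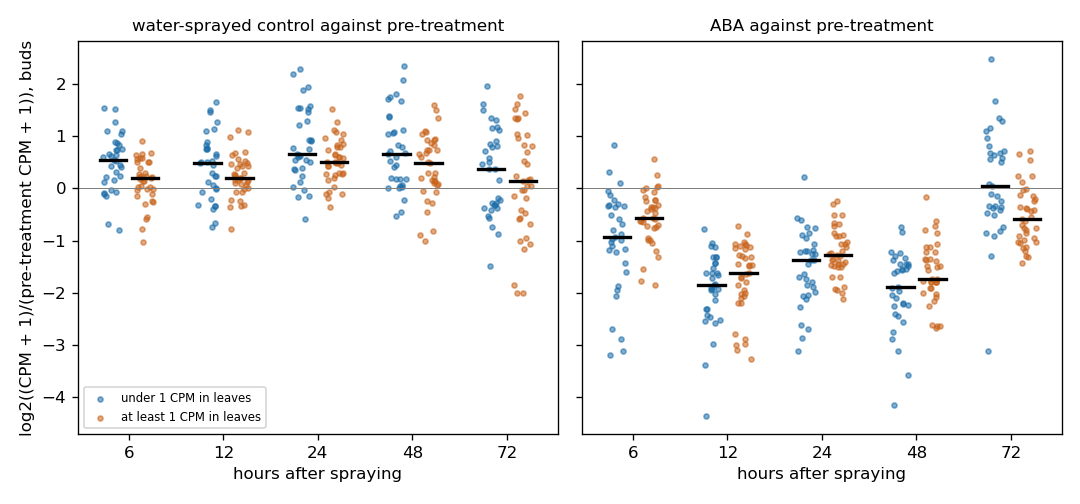
Log2 change of each of the 70 genes from pre-treatment buds (vertical axis) at 6 to 72 h (horizontal axis) in control (left) and ABA buds (right); points are genes, coloured by whether their mean leaf level was under 1 CPM, and black bars are medians. Control medians lie above 0 at every time, and ABA medians lie near -1.3 to -1.9 from 12 to 48 h and nearer to 0 at 6 and 72 h.

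The buds of 6 h did not enter the choice at all, and most of the 70 genes were already lower with ABA there. The median log2 ratio at 6 h was -0.90, with a range from -2.77 to 0.38, beside a median of -0.03 over the 14482 genes. The ratio was below 0 in 67 of 70 genes, and 30 of 70 (42.9%) were at least 2-fold lower, against 4.03% of the 14482 genes. In 62 of 70 (88.6%) all 3 ABA columns lay below all 3 control columns, against 27.4% of the 14482 genes; this compares repeat reads of 1 library per group. In ABA buds the median log2 change from pre-treatment was -0.62 at 6 h, against 0.25 in controls.

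At 72 h a smaller share of the 70 genes was lower with ABA than at 6 h, a difference that the choice itself favoured. The ABA library of 72 h did not enter the choice, while the control library of 72 h entered it through the limit on the control change. That control is the denominator of the 72 h ratio. All 10 genes kept out by this limit alone were at least 2-fold lower at 72 h, and 6 of them at 6 h. The shares at 6 and 72 h are therefore not read as a change. The median log2 ratio at 72 h was -0.60, with a range from -3.69 to 1.57, beside a median of 0.11 over the 14482 genes. Since the choice required a low ratio at 48 h, a higher ratio at 72 h than at 48 h is not read as a change. At this time 19 of 70 genes (27.1%) were at least 2-fold lower with ABA, against 5.35% of the 14482 genes. At least 2-fold higher were 5 of 70 genes (7.14%), a share near the 6.32% of the 14482 genes. The ratio was above 0 in 21 of 70 (30.0%), against 58.5% of the 14482 genes. In 15 of 70 (21.4%) all 3 ABA columns lay above all 3 control columns, against 29.6% of the 14482 genes. At neither 6 nor 72 h were 27 of the 70 genes at least 2-fold lower, at both times 6 were, and 10 combined a ratio of -1 or lower at 6 h with a ratio above 0 at 72 h. The matching shares of the 14482 genes were not computed, so these joint counts only describe the 70.

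The leaf criterion was met in different ways. Averaged over the 40 leaf columns, 33 of the 70 genes were under 1 CPM, with a median of 0.04 CPM, and 5 of these had no leaf count in any column. The other 37 genes were at 1 CPM or more, with a median of 71.3 CPM and a range from 1.03 to 492.8 CPM. Among the 70 genes 52.9% reached 1 CPM in leaves, against 89.2% of the 14482 genes. In 27 of the 70 the leaf controls of 24 and 48 h were under 0.414 CPM, a level from which a fall to 0 changes the log2 ratio by less than 0.5 with the 1 CPM pseudocount. For these 27 genes a lowering by ABA in leaves was not detectable at this depth, and their place among genes near the control level in leaves says nothing of a response there.

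The course in buds differed between these leaf-level classes in its early and late times, given here as a description. Of the 33 genes under 1 CPM in leaves, 23 (69.7%) were at least 2-fold lower with ABA at 6 h, against 9.14% of the 1565 bud genes of that leaf level. Of the 37 genes at 1 CPM or more, 7 (18.9%) were, against 3.41% of 12917. The median log2 ratios at 6 h were -1.43 and -0.61. At 72 h the order was the other way round. Of the 33 genes 5 (15.2%) were at least 2-fold lower, against 6.07% of the 1565 genes, and 14 (42.4%) were above 0, against 66.6%. Of the 37 genes 14 (37.8%) were at least 2-fold lower, against 5.26% of 12917, and 7 (18.9%) were above 0, against 57.5%. Both classes thus had fewer genes above 0 than other bud genes of their leaf level. The median log2 ratios at 72 h were -0.23 and -0.83. The 5 genes at least 2-fold higher with ABA at 72 h all had under 1 CPM in leaves. The matching share of the 1565 genes was not computed, so this only describes the 70. The median log2 ratio at 72 h was 0.31 over the 1565 genes and 0.10 over the 12917.

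The level in ABA buds relative to pre-treatment showed the same order at 72 h. Its median log2 change was 0.05 in the genes under 1 CPM in leaves and -0.59 in those at 1 CPM or more. The classes also differed in bud abundance and in the ratios used for the choice. Median bud levels before treatment were 9.41 CPM in the 33 genes and 85.1 CPM in the 37 genes. In the 33 genes the median ratios at 12, 24 and 48 h were -2.29, -2.12 and -2.46, against -1.86, -1.69 and -2.08 in the 37 genes. The part of abundance in the difference between the classes was not tested. With a split at 10 CPM in place of 1 CPM, 29 genes lay above the split, of which 3 were at least 2-fold lower at 6 h, 13 were at least 2-fold lower at 72 h and 3 were above 0 at 72 h.

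**Figure D2:**
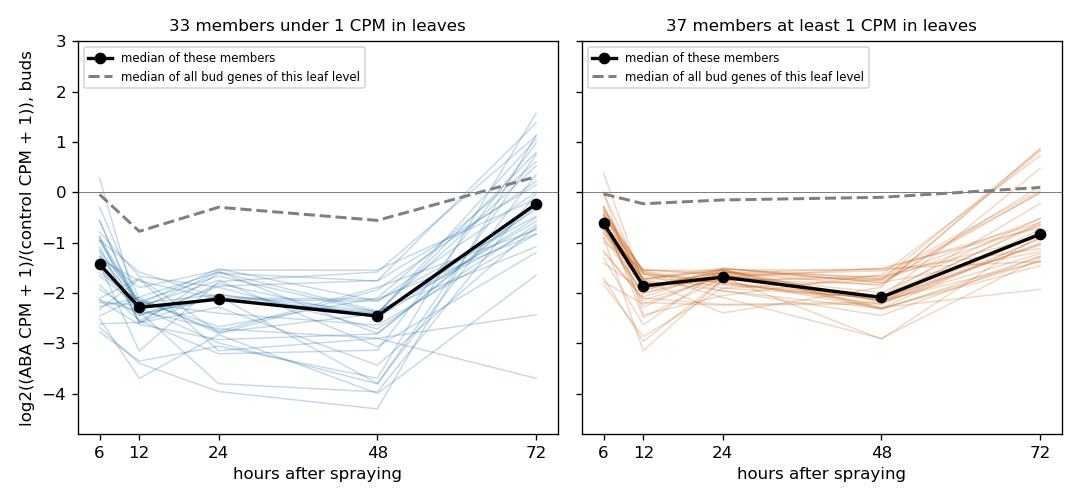
Log2 ratio of ABA to control in buds (vertical axis) at 6 to 72 h (horizontal axis) for the 33 genes under 1 CPM in leaves (left) and the 37 genes at 1 CPM or more (right); thin lines are genes, black lines their median, and dashed lines the median of all bud genes of that leaf level. At 6 h the left median is -1.43 and the right -0.61, and at 72 h the left is -0.23 and the right -0.83.

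**Figure D3:**
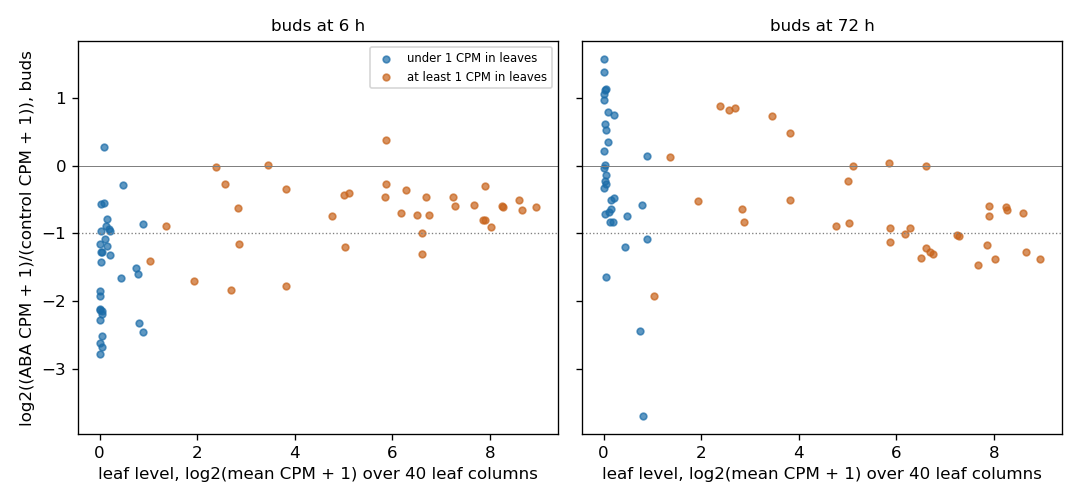
Log2 ratio of ABA to control in buds (vertical axis) at 6 h (left) and 72 h (right) against the leaf level as log2(mean CPM + 1) over 40 leaf columns (horizontal axis); points are the 70 genes, and the dotted line marks a log2 ratio of -1. At 6 h the low ratios crowd at leaf levels near 0, with 23 of the 33 genes under 1 CPM at or below the dotted line.

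Vitvi07g00292 had the lowest mean bud ratio of 12, 24 and 48 h among members with at least 20 CPM in controls. It stood at 86.5 CPM before treatment and at 249, 240, 323, 291 and 220 CPM in control buds at 6, 12, 24, 48 and 72 h. In ABA buds it stood at 38.0, 21.9, 19.9, 13.8 and 485 CPM at the same times. Control buds were thus above, and ABA buds below, the pre-treatment level up to 48 h, and ABA buds were the higher at 72 h. The control level was 6.54 times the ABA level at 6 h (95% counting interval 5.63 to 7.65) and 21.2 times at 48 h (17.1 to 26.5), and at 72 h the ABA level was 2.199 times the control level (2.05 to 2.36). These intervals and those below are exact, come from the summed counts and cover counting error only. Some of these ratios also served to choose the genes, and for those the stated 95% coverage does not hold. In the 40 leaf columns the gene had 1 count before treatment and 2 counts in ABA leaves at 48 h, and was at 0 elsewhere.

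Vitvi13g00217 had the highest control level of the 70 genes in buds. It stood at 3755 CPM before treatment, at 3169, 3152, 3304, 2753 and 1857 CPM in control buds and at 1287, 507, 1155, 835 and 1840 CPM in ABA buds at 6, 12, 24, 48 and 72 h. The ABA level was the lower up to 48 h, least so at 6 h, and the treatments met at 72 h, where both lay below the pre-treatment level. The control level was 6.23 times the ABA level at 12 h (95% counting interval 5.97 to 6.49) and 1.01 times at 72 h (0.980 to 1.04). In leaves its group means ran from 80.7 to 115 CPM, so it was well measured there. At 24 h the leaf controls stood at 69.6, 90.0, 115 and 100 CPM and the ABA leaves at 81.4, 81.7, 96.8 and 72.3 CPM, and the groups overlapped.

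Vitvi09g01394 had the highest ratio at 72 h. It stood at 37.9 CPM before treatment, at 35.0, 37.3, 48.7, 27.4 and 12.9 CPM in control buds and at 4.27, 2.75, 4.98, 1.20 and 40.4 CPM in ABA buds at 6, 12, 24, 48 and 72 h. ABA buds were near their pre-treatment level at 72 h, while the controls had their lowest value there. The 72 h levels rested on 199 counts with ABA and 69 in the control, a ratio of 3.12 (95% counting interval 2.36 to 4.17). No leaf column held a count of this gene.

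**Figure D4:**
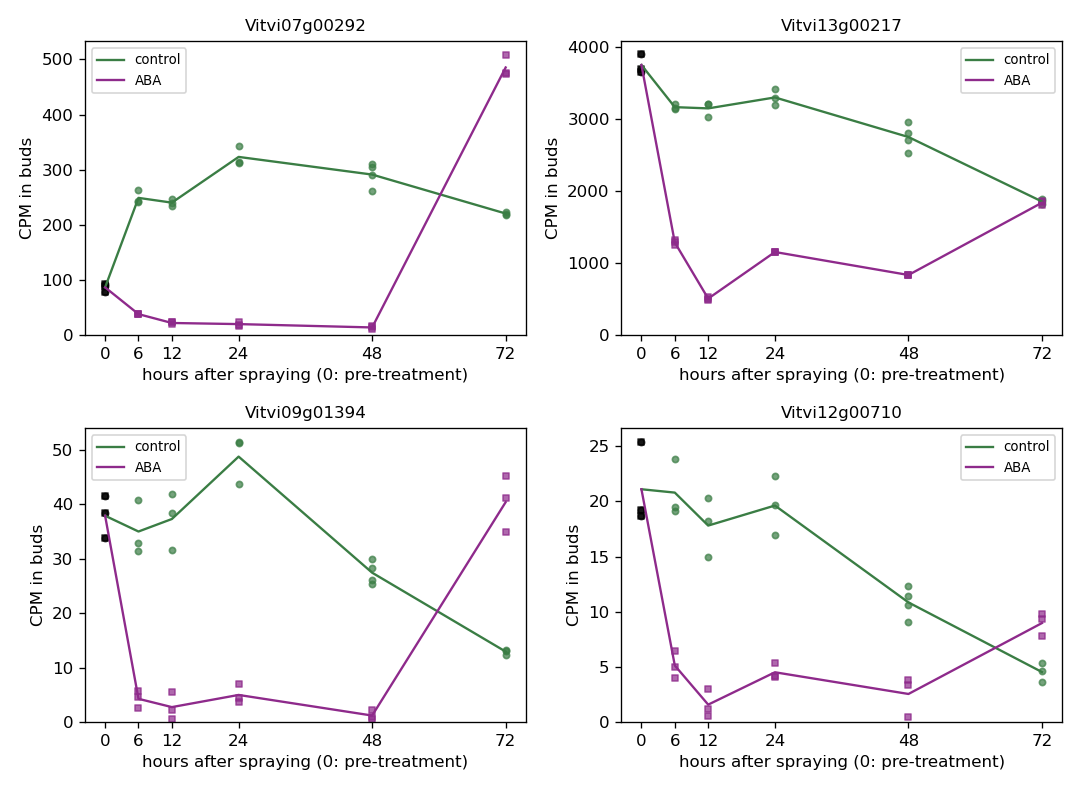
Level in CPM (vertical axis, from 0) of 4 named genes in buds. Values are before spraying (0 h, black) and at 6 to 72 h (horizontal axis) in control and ABA buds. Points are count columns, counted as 1 sample per group, and lines join their means. Per the labels the columns are repeat sequencing of a library, and those of the 48 h control differed more than those of other groups. In Vitvi07g00292, Vitvi09g01394 and Vitvi12g00710 the ABA level lies below the control up to 48 h and above it at 72 h, and in Vitvi13g00217 the levels meet at 72 h.

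Leaves at 2 and 4 h did not enter the choice. Of the 70 genes 35 had enough counts for the leaf test, all of them among the 37 genes at 1 CPM or more. With edgeR's quasi-likelihood test and Benjamini-Hochberg adjustment over 13378 genes, 0 of 35 were called with ABA at 2 h, where 0.0972% of all genes were called; 0 had an unadjusted p under 0.05 and DESeq2 called 0. At 4 h edgeR again called 0 of 35, against 1.55% of all genes, with 1 at an unadjusted p under 0.05 and 0 called by DESeq2. The 35 log2 fold changes ran from -0.70 to 0.63 at 2 h, with a median of 0.12, and from -0.76 to 0.18 at 4 h, with a median of -0.10. At the low background shares of these times, no called gene among 35 does not set the members apart from other genes.

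At 24 and 48 h the leaf values chose the genes. Calls and p-values of ABA against control at these times are a description and no test of the members. At 24 h 2 of the 35 genes passed the threshold, against 3.15% of all genes. Both were lower with ABA, at log2 changes of -0.62 and -0.57. These 2 became 0 without any of ABA 24 h replicates 1, 2 and 4 or control 24 h replicates 2 and 4, 1 without control 24 h replicate 3, and 0 when the fit held no other groups. At 48 h 0 passed by edgeR, against 2.21% of all genes, with 3 at an unadjusted p under 0.05 and 1 called by DESeq2. The 0 became 2 without ABA 48 h replicate 1, and 1 without ABA 48 h replicate 2 or control 48 h replicate 3. Of the 4 leaf libraries on a second flow cell, 1 was an ABA library of 24 h (replicate 1) and 2 were ABA libraries of 48 h (replicates 3 and 4), and none was a control of these times. Without that flow cell 13 of the 35 genes had an unadjusted p under 0.05 at 24 h, against 5 with it. At 48 h there were 6, against 3, and edgeR called 1 gene at 24 h and 0 at 48 h without that flow cell. Shares of all genes under that p were not computed at any time, so such counts are not read as a result about the members. The median log2 change of the 35 moved from -0.25 to -0.34 at 24 h and from -0.16 to -0.25 at 48 h. Over all genes tested the median moved from 0.014 to -0.016 at 24 h and from 0.012 to -0.012 at 48 h. Without that flow cell 65 genes met the criteria of the choice, of which 62 were among the 70. The leaf criterion therefore admitted small changes and, as an average, did not hold each time within 0.5: single leaf log2 ratios of the 70 genes ran from -1.07 to 0.76 at 24 h and from -0.69 to 0.99 at 48 h.

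In control leaves, after spraying with water and surfactant, a few of the 35 genes changed from the pre-treatment level in the first hours. At 4 h 6 were higher (17.1%), against 7.27% of all genes called higher, and 1 was lower; 14.8% of all genes were called in either direction, beside 20.0% of the 35. The 6 higher genes had log2 changes from 0.51 to 2.22, and the lower gene changed by -1.12 at 4 h and by -1.34 at 2 h. Without control 4 h replicate 2 the count of 7 was 3. At 2 h 1 was higher and 1 lower (5.71%), against 11% of all genes, and the 2 became 1 when any of 9 libraries was left out, among them each of control 2 h replicates 1, 2 and 3. Whether the members' shares differed from those of all genes was not tested. At 24 h edgeR called 0 of 35, against 2.94% of all genes, with 3 at an unadjusted p under 0.05 and 1 called by DESeq2. At 48 h it called 0, against 0.277%, with 4 at an unadjusted p under 0.05 and 0 called by DESeq2. The control libraries of 24 and 48 h also entered the choice.

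Vitvi12g00710, chosen after its values were seen, had the largest of these changes. In pre-treatment leaves its 8 libraries ran from 1.00 to 4.89 CPM, with a mean of 2.55 ± 1.23 CPM (SD, n = 8). Control leaves at 4 h stood at 14.6, 12.0, 8.06 and 15.2 CPM, 12.5 ± 3.25 CPM (SD, n = 4), with no overlap with pre-treatment. Its log2 change was 2.22 ± 0.37 (SE, edgeR adjusted p = 3.42e-05), and it passed the threshold in all 18 alternative fits. At 2 h the controls stood at 8.28, 7.15, 1.51 and 6.79 CPM, 5.93 ± 3.02 CPM (SD, n = 4), which overlapped pre-treatment. The log2 change of 1.19 ± 0.40 (SE, edgeR adjusted p = 0.0499) passed in 4 of the 18 alternatives. ABA leaves at 4 h stood at 8.92, 7.29, 4.25 and 8.37 CPM, which overlapped the controls of that time, and their log2 change from these of -0.76 did not pass (edgeR adjusted p = 0.370).

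In buds Vitvi12g00710 stood at 21.1 CPM before treatment, at 20.8, 17.8, 19.6, 10.8 and 4.53 CPM in controls and at 5.13, 1.58, 4.51, 2.55 and 8.97 CPM with ABA at 6, 12, 24, 48 and 72 h. The controls lay lower at 48 and 72 h than before, and the ABA level was above the control at 72 h only, on 44 counts against 24.

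**Figure D5:**
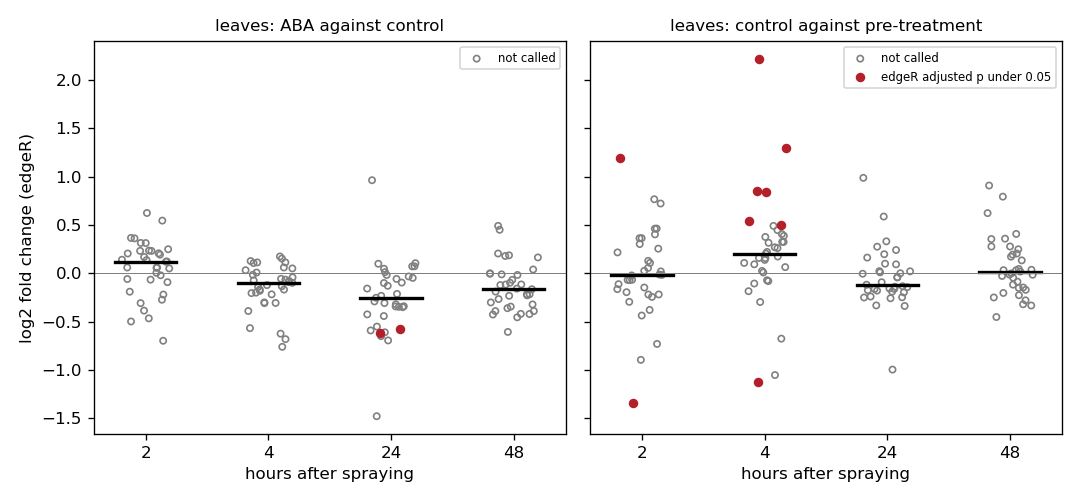
Log2 fold change by edgeR in leaves (vertical axis) of the 35 genes tested, for ABA against control (left) and control against pre-treatment (right) at 2, 4, 24 and 48 h (horizontal axis); points are genes, filled red where the adjusted p was under 0.05, and black bars are medians. Filled points stand at 24 h only for ABA, 2 of them, and at 2 and 4 h for controls, with the highest at 2.22. The ABA values of 24 and 48 h chose the genes and carry no test.

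The other genes lowered in buds at all 3 times that missed the leaf or control criteria are set beside the 70 as values only, since the same bud ratios chose them. Lower or higher in leaves means here only a mean log2 ratio of 24 and 48 h at least 0.5 from 0. Its median was -0.58 in the 14 lower genes and 0.54 in the 5 higher genes. The 14 that were lower in leaves had a median log2 ratio of -1.17 at 6 h and -1.48 at 72 h in buds, with 10 and 8 at least 2-fold lower, and a median leaf level of 35.4 CPM. In leaves at 4 h 2 of the 13 tested were called lower with ABA. The 10 that were kept out by their control change had medians of -1.12 at 6 h and -2.19 at 72 h, and all 10 were at least 2-fold lower at 72 h, where the control level that kept them out is the denominator. Of the 5 that were higher in leaves, 2 were tested there and 0 were called with ABA at 2 or 4 h. The 5 had medians of -1.01 and -0.24 in buds at 6 and 72 h. Whether the 70 genes differed from these other genes was not tested.

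The identifiers of the 70 genes fell under 17 of the 20 prefixes in the tables. The prefix with most members held 8 of them (11.4%), against 6.69% of the 14482 genes. It was picked for its count, so the higher share is not read as a result. Near running numbers were not counted among the 14482 genes. In 4 pairs of members the running numbers were at most 3 apart. Whether these are neighbouring or near-identical copies that share reads is not annotated in the sources used here, so their values are uncertain.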

How the data were processed

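Expression was measured by QuantSeq 3′ mRNA sequencing, with 85 bp reads in leaves and 75 bp reads in buds, per the labels' protocols. The authors deposited raw counts per gene, 40 leaf columns and 34 bud columns over 42413 identifiers. FastQC, STAR and DESeq2 appear in the submitters' processing notes. The role and version of each, and the genome build, annotation and use of strand, were not given in the sources used here, so genes with close copies or antisense partners are uncertain.

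Counts were divided by the column total to give CPM, averaged by group and compared as log2 with a pseudocount of 1 CPM. Bud columns of a group were counted as 1 sample. Leaf counts were tested with edgeR 4.0.16 (R 4.3.3), with TMM scaling, filterByExpr at a minimum count of 10, 1 mean for each of 9 groups and Benjamini-Hochberg adjustment over all genes at 0.05. The script was tested on simulated data. Alternatives were DESeq2 1.42.0, RLE scaling, no count filter, a replicate block, only the compared groups and no second flow cell. Other pseudocounts, and TMM scaling in the choice of members, were also used. Single libraries were left out of the leaf fits in turn. In the choice of members, a replicate number was left out of all groups at once. A 1.5-fold limit and a leaf-level split at 10 CPM were also tried; the use of the split, the second split, the set shared with TMM and the choice of members without the second flow cell were chosen after seeing the data.

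The members and lists were chosen with earlier results of these data known. Without gene names, the named members were those with the lowest mean bud ratio (controls of at least 20 CPM), the highest control level, and the highest 72 h ratio (at least 5 CPM with ABA); a member called higher with ABA in leaves at 2 or 4 h would have been added, and there was none. Lists by gene description could not be formed.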

Additional observations from a re-analysis of the deposited data

Results flagged for a closer look

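Of 40 groups of columns examined over the named genes, 24 had any spread, and in 3 of these 1 leaf library stood far from the others. Chance gives this in about 1 of 20 groups where values are continuous. Vitvi07g00292 was at 0.831 CPM (2 counts) in 1 ABA 48 h library and at 0.456 CPM (1 count) in 1 pre-treatment library, with 0 in the others; a single non-zero library among zeros always stands apart in this way, and the rate does not hold for these. Vitvi13g00217 was at 135 CPM in 1 control 2 h library, where the lowest of the group was 93.8 CPM. This control library and the ABA 48 h library above were both among the 4 leaf libraries on the second flow cell.

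In buds, ABA columns lay below control columns at 48 h and above them at 72 h in 15 of the 70 genes (21.4%), against 10.7% of the 14482 bud genes. The 48 h side of this was fixed by the choice of the genes, so the shares cannot be compared. Of the 15, 10 were under 1 CPM in leaves and 5 at 1 CPM or more, and the matching shares by leaf level were not computed. The log2 ratio at 72 h was 1.14 in Vitvi07g00292, 1.57 in Vitvi09g01394 and 0.85 in Vitvi12g00710. The difference between 48 and 72 h was not tested, since each group was counted as 1 sample.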

How the results depend on the processing

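Of 193 alternative values 147 stayed on their side of the threshold or within a wide margin of the reported count. That margin took in a set of 53 genes against 70, and 5 or 9 calls against 7. Of the rest, 32 counts or shares moved, 14 single-gene calls were lost and 0 changed sign. The set of 70 became 39 with TMM scaling (37 shared) and 35 with only genes that pass the leaf count filter. It became 53 and 79 with pseudocounts of 2 and 0.5 CPM (49 and 65 shared), and 65 without the second flow cell (62 shared). Leaving out 1 replicate number from all groups at once gave 72, 77, 68 and 72 genes for numbers 1, 2, 3 and 4. Of these 57, 59, 51 and 68 were among the 70. Of the 37 genes shared with TMM, 64.9% were at least 2-fold lower at 6 h and 18.9% at 72 h, against 42.9% and 27.1% of the 70. With a 1.5-fold limit the counts of lower genes were 51 at 6 h (22 of them at 1 CPM or more in leaves, against 7) and 36 at 72 h (11 under 1 CPM and 25 at 1 CPM or more, against 5 and 14). With TMM scaling the counts at 2-fold were 30 and 19, as reported. With a split at 10 CPM, 3 of the 29 genes above it were lower at 6 h and 3 higher at 72 h.

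For control leaves against pre-treatment, the 2 calls at 2 h became 1 with no count filter, with only the compared groups, with the replicate block and without the second flow cell (4 libraries), and 1 to 3 without single replicates. The 7 calls at 4 h became 3 to 9 without single replicates, 3 without control 4 h replicate 2. The 0 calls at 24 h became 1 with DESeq2, with RLE scaling, with only the compared groups and without the second flow cell, and 0 to 1 without single replicates, with 1 without control 24 h replicate 1 or pre-treatment replicates 4, 7 or 8. Leaf libraries of the same replicate number did not deviate together: the correlation of their deviations ran from -0.22 to 0.16, over 0.1 in 2 of 16 pairs, and 3 of 16 ABA libraries correlated best with their own number. The numbers were not taken as pairs, and with the replicate block the calls at 4 h were 7. Causes of these shifts were not tested. Depth limits the leaf values of the 33 genes under 1 CPM.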
